A study of Mus musculus with 4 samples.

Results

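Smooth muscle cells contract with a set of actin-filament and myosin-regulating proteins, and 10 genes of that set were followed across single-cell libraries of mouse embryoid bodies: Acta2, Actg2, Tagln, Cnn1, Tpm1, Tpm2, Myl9, Mylk, Smtn and Des. The genes were chosen with earlier results of these data known. They were matched by symbol to the deposited gene list, in which all 10 were present among 32285 genes. Embryoid bodies are aggregates in which pluripotent cells differentiate into several cell types; these were grown from R1, a line of mouse embryonic stem cells, and had no genetic change named in the labels. One group stayed in normoxia for 8 d, another spent 7.33 d in normoxia and then 16 h in hypoxia, another stayed in normoxia for 10 d, and the last spent 8 d in normoxia and then 48 h in hypoxia. The oxygen tension was not given in the labels used here. Each group was 1 library of dissociated cells made with 10x Genomics 3′ chemistry, so there was no replicate of any condition and no test between conditions was possible.

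In smooth muscle, alpha and gamma actin form thin filaments that tropomyosins coat and that calponin and transgelin bind, while calcium switches on the myosin light chain kinase, which phosphorylates the regulatory light chain and starts contraction. Most of these genes are controlled by serum response factor (SRF) at CArG boxes, together with myocardin or the myocardin-related factors (MRTF) that respond to actin polymerisation and to TGF-beta. The same genes, Acta2 and Tagln above all, are also used by myofibroblasts and, for a time, by the early heart, so they do not by themselves name a smooth muscle cell.

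The promoters were searched for CArG boxes, for the element that TEAD factors bind, for the core letters of hypoxia response elements and for TATAAA. Windows of 250 bases before and 50 bases after a RefSeq start (build GRCm38.p6) matched 8 of the 10 genes, all but Tagln and Actg2. The Mylk window (chr16:34784700-34784999, plus strand) lies inside the annotated gene, which begins at 34745210, so it is not at the gene's first base. The Smtn window (chr11:3539243-3539542, minus strand) also lies inside its gene, which begins at 3540612. The CArG box, searched on both strands, was found in 1 of these 8 windows (Myl9) and in 1.63% of all 32851 windows in the table. A CArG-like element, in which 1 of the 6 inner bases is not A or T, was found in Acta2 and Myl9 and in 8.50% of all windows. The element that TEAD factors bind, CATTCC on either strand, was found in Acta2, Tpm1, Mylk and Smtn and in 14.7% of all windows. The core letters of hypoxia response elements were found as ACGTG in Cnn1 and Mylk (19.6% of all windows) and as GCGTG in Cnn1, Tpm1 and Smtn (32.4% of all windows). No searched motif was found in the windows of Tpm2 and Des, and TATAAA (13.6% of all windows) was in none of the 8. No element overlapped another. The stretches below show the CArG and CArG-like elements of the 2 genes that held them, and the ACGTG core of the 2 genes that held it, with the element in capitals and each read 5′ to 3′ on the gene's strand.
Acta2, chr19:34255438-34255467, minus strand, element from base -84: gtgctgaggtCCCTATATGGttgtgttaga
Acta2, chr19:34255388-34255417, minus strand, element from base -34: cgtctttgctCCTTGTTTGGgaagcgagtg
Myl9, chr2:156775293-156775322, plus strand, element from base -161: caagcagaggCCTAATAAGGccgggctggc
Myl9, chr2:156775355-156775384, plus strand, element from base -99: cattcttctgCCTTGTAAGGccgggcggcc
Cnn1, chr9:22099245-22099274, plus strand, element from base 5: ggagcttcaaaaACGTGtgaggagggaaga
Mylk, chr16:34784791-34784820, plus strand, element from base -147: acattccctggtACGTGcagggccggaagc
Bases are counted from the RefSeq start, with -1 just before it. Both Acta2 stretches and the Cnn1 stretch touch an annotated GENCODE exon, and the Myl9 and Mylk stretches do not. A match of letters is a description of the sequence and shows no binding.

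The 4 libraries held 3374 cell barcodes for day 8 in normoxia, 3489 for day 8 after hypoxia, 2802 for day 10 in normoxia and 4746 for day 10 after hypoxia, and any 2 libraries shared 1 to 5 barcodes. After removal of cells with fewer than 500 genes or with over 15% mitochondrial UMIs, 2679 to 4616 cells and 62614780 to 84938732 UMIs per library remained. The median cell had 23057.5, 18839, 20332 and 12802 UMIs in that order. The day 10 hypoxia library stood apart: ribosomal protein genes took 30.5% of its UMIs against 19.2% to 21.6% in the other 3, and 1.11% of its UMIs were mitochondrial against 2.01% to 4.05%. The labels call the cells mESC, but the 8 pluripotency markers summed to 4.36 to 20.003 CPM (UMIs per 1000000 UMIs of the library), Pou5f1 stood at 2.25 to 5.22 CPM, and 41 cells fell in a pluripotent stem cell-like cluster. The 10 markers of skeletal muscle, which also uses tropomyosins and desmin, summed to 24.8, 25.6, 38.6 and 13.7 CPM, with 2, 4, 5 and 4 of them at 0. Of its defining factors, Myod1 and Myf5 had 0 UMIs in every library, Myog had 1, 0, 5 and 5, and Pax7 had 8, 2, 0 and 1. The 14 cardiomyocyte markers, whose cells use Acta2 and Tpm1 during development, summed to 499.9, 373, 428 and 253 CPM in the same order, with 0 of them at 0. The 11 fibroblast markers summed to 7362, 7399, 9474 and 4074 CPM, the 6 pericyte markers to 66.6, 76.6, 58.0 and 33.9, and the 9 mesothelial or epicardial markers to 311, 630.4, 465 and 419. The part of these cell types in the levels below was not tested; values within mesenchymal-like cells are given beside them.

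Levels are CPM from the summed UMIs of all kept cells. A 3′ UMI count does not depend on transcript length in the way a read count does, but capture differs between genes, so levels were compared between libraries and not between genes. Each comparison is the log2 ratio of CPM + 1, and a gene was called higher or lower when it reached 2-fold. Of the 10 genes, 8 averaged 20 CPM or more across the libraries, the level required of the 6578 genes used as background; Cnn1 and Mylk lay below it and were counted all the same. Intervals in brackets are exact 95% intervals that cover counting error only, and those of a log2 ratio are for the ratio without the added 1.

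Acta2 encodes smooth muscle alpha actin (ENSMUSG00000035783, chr19:34241090-34255590, minus strand of mm10). It stood at 2841 CPM in normoxia at day 8, 3649.8 after 16 h of hypoxia, 1062 in normoxia at day 10 and 3589 after 48 h of hypoxia. The day 10 normoxia library was the low one, and the other 3 all lay at 2841 or above. The log2 ratio of hypoxia to normoxia was 0.36 at day 8 (0.35 to 0.37) and 1.76 at day 10 (1.75 to 1.77), the latter a 3.38-fold difference. Between the normoxic libraries, day 10 against day 8, the log2 ratio was -1.42 (-1.43 to -1.41).

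Actg2 encodes smooth muscle gamma actin, the actin of visceral muscle (ENSMUSG00000059430, chr6:83512905-83536265, minus strand). It stood at 109.8, 148, 88.9 and 253 CPM in the same order, highest after 48 h of hypoxia. The log2 ratios of hypoxia to normoxia were 0.43 at day 8 (0.39 to 0.47) and 1.501 at day 10 (1.47 to 1.55), and that of day 10 to day 8 in normoxia was -0.30 (-0.35 to -0.26).

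Tagln encodes transgelin (SM22), an actin cross-linking protein (ENSMUSG00000032085, chr9:45929619-45936058, minus strand). It stood at 1179, 2045, 572 and 3655 CPM, so that hypoxia was the higher of each pair. It had the largest hypoxia ratio of the 10 genes at both days: a log2 ratio of 0.79 at day 8 (0.78 to 0.81) and 2.67 at day 10 (2.66 to 2.69), the latter a 6.38-fold difference. In normoxia day 10 lay below day 8 by a log2 ratio of -1.04 (-1.06 to -1.03), which was under 2-fold with each other scaling: -0.92 with TMM, -0.97 when centred on all genes and -0.99 with the total without mitochondrial and ribosomal protein genes. On the opposite strand Tagln shares 108 annotated bases with Pcsk7 and 3627 with an antisense gene, and the sources used here do not say whether the counting used strand.

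Cnn1 encodes calponin 1, which binds actin and slows the myosin ATPase and is a marker of mature smooth muscle (ENSMUSG00000001349, chr9:22099216-22109630, plus strand). It was scarce, with 1033, 1047, 164 and 1085 UMIs in the 4 libraries, or 12.2, 13.4, 2.62 and 14.1 CPM. Here too 3 libraries were alike and day 10 in normoxia was low. Its log2 ratios were 0.13 at day 8 (0.02 to 0.27), 2.06 at day 10 (2.19 to 2.68) and -1.86 between the normoxic libraries (-2.46 to -1.98). With 10 CPM added in place of 1, the day 10 ratio and the normoxic one became 0.93 and -0.81, under 2-fold.

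Tpm1 and Tpm2 encode tropomyosins, the coiled coils that lie along the actin filament; both are also made in non-muscle forms, which UMIs at the 3′ end were not used to separate here. Tpm1 (ENSMUSG00000032366, chr9:67022590-67049406, minus strand) stood at 2022, 2336, 1806 and 1984 CPM. Tpm2 (ENSMUSG00000028464, chr4:43514711-43523765, minus strand) stood at 221, 272, 211 and 204 CPM. The largest ratio of either in the 3 comparisons was 1.23-fold. The log2 ratios of hypoxia to normoxia for Tpm1 were 0.21 at day 8 and 0.14 at day 10. Those for Tpm2 were 0.30 and -0.05, and the second changed sign with TMM scaling (0.45), with the total without mitochondrial and ribosomal protein genes (0.07) and when centred on all genes (0.29).

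Myl9 encodes the regulatory light chain of smooth muscle myosin (ENSMUSG00000067818, chr2:156775420-156781658, plus strand), and Mylk encodes the kinase that phosphorylates it (ENSMUSG00000022836, chr16:34745210-35002420, plus strand). Myl9 stood at 76.2, 73.2, 61.6 and 109.8 CPM, highest after 48 h of hypoxia. Its log2 ratio was -0.06 at day 8, which became 0.17 with TMM scaling and 0.01 when centred on all genes, and 0.82 at day 10 (0.78 to 0.89). The second passed 2-fold with TMM scaling (1.32) and when centred (1.15).

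Mylk went the other way. It stood at 7.76, 5.09, 22.0 and 6.61 CPM, from 659, 397, 1380 and 508 UMIs. Day 10 in normoxia was thus the high library for Mylk and the lowest library for Acta2, Tagln, Cnn1, Actg2, Myl9 and Tpm1. UMIs at the 3′ end were not used to separate transcript forms of Mylk here. The log2 ratios of Mylk were -0.53 at day 8 (-0.79 to -0.43), -1.60 at day 10 (-1.89 to -1.59) and 1.40 between the normoxic libraries (1.37 to 1.64). With 10 CPM added in place of 1, the day 10 and normoxic ratios became -0.95 and 0.85. Mylk overlaps 3 antisense genes, the longest over 15820 bases, so the same limit of strand applies.

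Smtn encodes smoothelin, a protein of contractile filaments (ENSMUSG00000020439, chr11:3517523-3540612, minus strand), and Des encodes desmin, the muscle intermediate filament (ENSMUSG00000026208, chr1:75360329-75368579, plus strand). Smtn stood at 21.4, 13.8, 30.04 and 18.7 CPM. Des stood at 48.0, 44.3, 68.8 and 42.1 CPM. Both were highest in day 10 normoxia, the pattern of Mylk, and neither reached 2-fold in any comparison. The log2 ratios of hypoxia to normoxia for Smtn were -0.59 at day 8 and -0.66 at day 10. Those for Des were -0.11, which became 0.11 with TMM scaling, and -0.69. Opposite-strand transcripts overlap Smtn over 6700 and 670 bases and Des over 368 bases, with the same limit of strand.

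**Figure D1:**
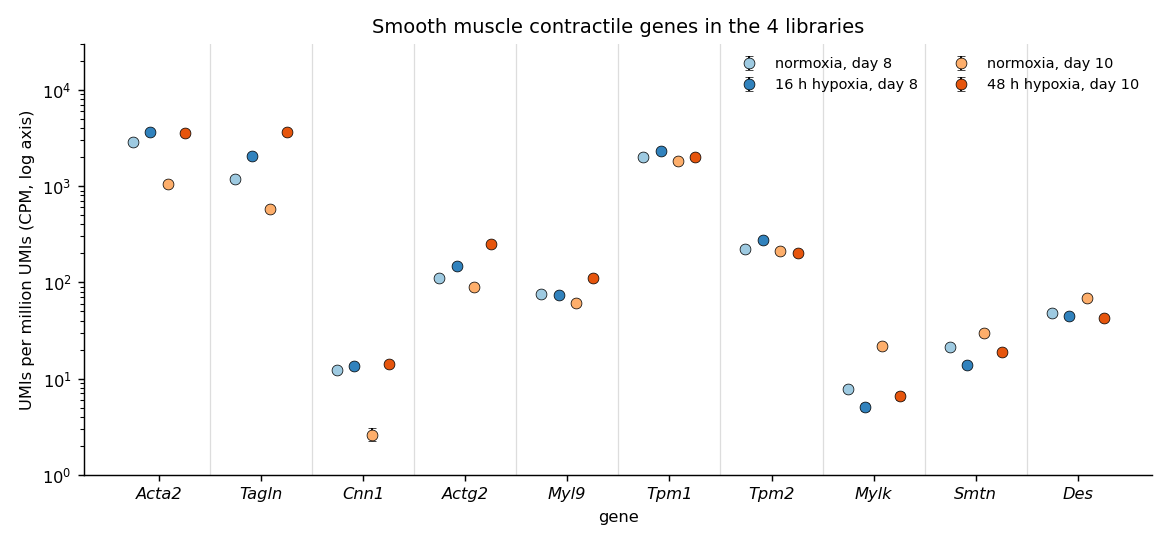
Level of each of the 10 genes in each library, in CPM on a log axis; points are single libraries, and bars are exact 95% counting intervals, mostly smaller than the point. Day 10 in normoxia is the lowest point for Acta2 (1062), Tagln (572), Cnn1 (2.62), Actg2 (88.9), Myl9 (61.6) and Tpm1 (1806). It is the highest for Mylk (22.0), Smtn (30.04) and Des (68.8).

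Counted together, 0 of the 10 genes were called higher and 0 lower after 16 h of hypoxia, where 1.75% of background genes were called higher and 0.943% lower. After 48 h of hypoxia 4 were higher (Tagln, Cnn1, Acta2 and Actg2) and 1 was lower (Mylk), where 4.83% of background genes were higher and 21.9% lower. Between the normoxic libraries 1 was higher at day 10 (Mylk) and 3 were lower (Cnn1, Acta2 and Tagln), where 2.63% of background genes were higher and 1.7% lower. The 10 genes, and the lists read below, were chosen with earlier results of these data known. Their counts beside the background are therefore descriptions and not independent support. The median log2 ratio of the 10 genes was 0.17, 0.48 and -0.23 in the 3 comparisons, against -0.07, -0.33 and -0.07 over the background genes. The day 10 comparison and the normoxic one share the day 10 normoxia library, and the day 8 comparison and the normoxic one share the day 8 normoxia library, so that the opposite directions of Acta2, Tagln, Cnn1 and Mylk in them are not separate observations. All 10 genes together took 0.654% of UMIs at day 8 in normoxia, 0.860% after 16 h of hypoxia, 0.392% at day 10 in normoxia and 0.988% after 48 h of hypoxia. Tpm1 made up 46.0% of those UMIs at day 10 in normoxia and 20.1% after 48 h of hypoxia, while Tagln made up 14.6% and 37.0%.

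The background depended on the scaling. Of the 6578 genes, 318 were called higher and 1440 lower after 48 h of hypoxia, and with TMM scaling 981 were higher and 652 lower of the 6523 genes that reach 20 CPM on that scale; TMM moved the median of all genes by 0.49 at day 10. Centring on that median gave 664 higher and 866 lower. At day 8 the split was 115 higher and 62 lower, 191 and 14 with TMM, and 137 and 40 when centred; between the normoxic libraries it was 173 and 112, and 209 and 77 with TMM. TMM moved the median of all genes by 0.22 at day 8 and by 0.12 between the normoxic libraries. In all kept cells, Acta2, Actg2, Tagln and Cnn1 stayed above 2-fold after 48 h of hypoxia under each of the 3 other scalings, and Mylk stayed more than 2-fold lower.

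**Figure D2:**
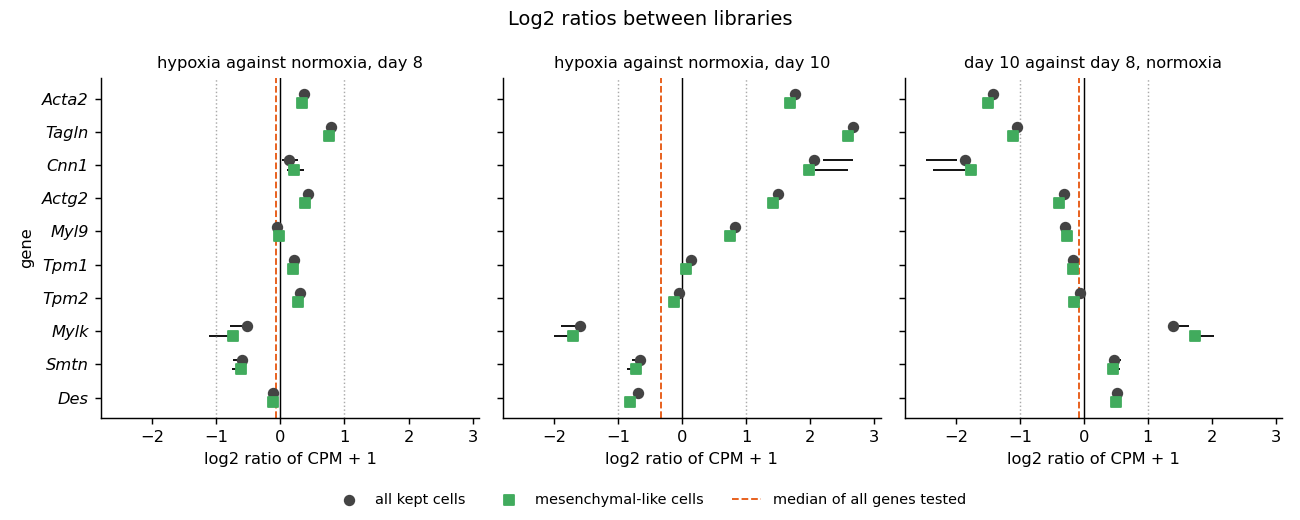
Log2 ratio of CPM + 1 of each gene in the 3 comparisons, for all kept cells (circles) and mesenchymal-like cells (squares); horizontal bars are exact 95% counting intervals of the ratio without the added 1, dotted lines mark 2-fold, and the dashed line is the median of all genes tested. After 48 h of hypoxia Tagln lies at 2.67 and Mylk at -1.60; after 16 h no gene passes 2-fold.

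To see which cells carried the genes, the cells of all libraries were clustered together without the 10 genes and without the pathway lists described below, so that the genes did not define the clusters. Of 22 clusters, 14 were mesenchymal-like by markers of fibroblasts, pericytes or mesothelium, 7 carried markers of another type, and 1, with a median of 2845 UMIs per cell, stayed unnamed. The mesenchymal-like clusters were largely split by library: clusters 0, 1, 3 and 7 held cells of day 10 hypoxia, clusters 6, 12 and 13 of day 10 normoxia, and cluster 5 of day 8 hypoxia, while clusters 2, 4, 8, 9, 10 and 11 held mostly day 8 cells of both kinds. A cluster of 1 library may be that library and not a cell type.

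Mesenchymal-like cells made up 2661 of 3168, 2847 of 3345, 2315 of 2679 and 4235 of 4616 kept cells in the 4 libraries. They held 96.5% to 97.7% of the Acta2 UMIs and 96.2% to 97.7% of the Tagln UMIs of each library. Much of these shares follows from the number of such cells, above all after 48 h of hypoxia. The calls within them were those of the whole libraries. Acta2 in these cells stood at 3237, 4075, 1149 and 3689 CPM and Tagln at 1341, 2276, 623 and 3755 CPM. The same 4 genes were called higher after 48 h of hypoxia, and the same 1 lower, where 5.11% of 6521 genes were higher and 22.3% lower. After 16 h 0 of 10 were called either way, where 1.95% were higher and 1.01% lower. Cluster 6 was the 1 cluster named from mesothelial or epicardial markers, with Muc16 and Aldh1a2 among its top 10 genes. It held 836 cells of day 10 normoxia and 1 to 5 of each other library. Without cluster 6, the log2 ratio of Actg2 in mesenchymal-like cells after 48 h of hypoxia was 0.89. Those of Acta2 and Tagln between the normoxic libraries were -0.94 and -0.89, and all of these were under 2-fold. Clusters 5, 8 and 11, which hold mainly day 8 cells, kept fibroblast as their best list but also had 1 or 2 mesothelial markers among their top 10 genes. Without clusters 5, 6, 8 and 11 together, Actg2 stood at 0.87 after 48 h of hypoxia, whereas Acta2 and Tagln were below day 8 by log2 ratios of -1.27 and -1.29 between the normoxic libraries, past 2-fold.

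A single cluster held most of the Acta2 and Tagln transcripts at day 8. Cluster 2 had 373 of 3168 cells of day 8 normoxia, 533 of 3345 cells of day 8 hypoxia and 133 of 2679 cells of day 10 normoxia. It held 59.1%, 69.2% and 33.4% of the Acta2 UMIs of those libraries and 70.6%, 72.2% and 36.4% of the Tagln UMIs. Its median cell had 36051, 31671 and 38581 UMIs, against 23057.5, 18839 and 20332 in the whole libraries, so its depth adds to these shares. Acta2 stood there at 9456 CPM (9407 to 9505), 9940.2 (9896 to 9984) and 3779 (3730 to 3829), so the day 10 normoxia cells of this cluster were below the day 8 cells. Tagln stood at 4684, 5807 and 2217 CPM, Actg2 at 502, 449.6 and 213 CPM, and Cnn1 at 39.9, 36.7 and 6.63 CPM. Day 10 normoxia was lowest in each; of the day 8 libraries, hypoxia was the higher for Acta2 and Tagln and normoxia for Actg2 and Cnn1. Mylk stood at 3.38, 1.81 and 8.33 CPM in this cluster.

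The day 10 hypoxia library had 4 cells in cluster 2; the cluster with its highest Acta2 level among mesenchymal-like cells was cluster 7, with 831 of 4616 cells. Cluster 7 held 61.3% of that library's Acta2 UMIs and 47.8% of its Tagln UMIs, at 7581 CPM (7545 to 7618) and 6024 CPM (5991 to 6056). Its median cell had 20925 UMIs, against 12802 in the whole library. Tagln was also present in the other mesenchymal-like clusters of that library, at 940.2 CPM in cluster 0, 3520.3 in cluster 1 and 3735 in cluster 3, and clusters 1 and 3 held 16.1% and 27.7% of its Tagln UMIs. In the mesenchymal-like clusters of the day 10 normoxia library Tagln ranged from 33.3 CPM in cluster 9 to 2217 in cluster 2, and in the 3 clusters with most of its cells, 6, 12 and 13, it stood at 477, 384 and 329 CPM. Acta2 in those 3 clusters stood at 383, 606 and 1889 CPM.

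The cluster with the highest Mylk level was not the one with the highest Acta2 level in any library. Mylk levels in day 10 normoxia were 30.2 CPM in cluster 6, 16.4 in cluster 12, 31.3 in cluster 13 and 44.4 in cluster 9, which had 51 cells. At day 8 its highest level was in the megakaryocyte-like cluster 18, at 148 CPM (120 to 179) in normoxia and 198 CPM (159 to 244) after hypoxia, from 35 and 31 cells. Smtn also had its highest level of day 8 normoxia there, at 67.9 CPM. That cluster held 15.2% and 22.4% of all Mylk UMIs of the day 8 libraries. The median cell of that cluster had 16585 and 12085 UMIs in the day 8 libraries and 2969 UMIs after 48 h of hypoxia. In that last library its 43 cells had 2 Mylk UMIs, or 9.98 CPM (1.21 to 36.0), which is near the floor. The highest level of any cluster there was in the endothelial-like cluster 20, at 14.3 CPM (1.74 to 51.8) from 2 UMIs in 23 cells. In that library cluster 7, where Acta2 was high, had the highest Mylk level of the mesenchymal-like clusters, at 9.91 CPM (8.64 to 11.3). It held 43.5% of the Mylk UMIs. Cluster 3 was close, at 8.87 CPM (7.64 to 10.2) and 36.4% of the Mylk UMIs.

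The cardiomyocyte-like cluster 19 carried the muscle genes that the early heart shares. In day 8 normoxia its 23 cells had Acta2 at 6440.5 CPM, Tpm1 at 7003, Cnn1 at 173, Myl9 at 522 and Des at 305, and Cnn1, Tpm1, Myl9 and Des were at their highest level of any cluster of that library. Its 42 cells of day 10 hypoxia had Acta2 at 1243 CPM, Cnn1 at 88.5 and Des at 127. This cluster held 9.49% of the Cnn1 UMIs of day 8 normoxia and 4.06% of those of day 10 hypoxia, and at most 1.51% of the Acta2 UMIs.

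Macrophage-like cells, which are not known for smooth muscle actin or transgelin, serve as the background for Acta2 and Tagln; they do use tropomyosins of non-muscle form, and had Tpm2 at 93.7, 127, 90.2 and 74.2 CPM. In macrophage-like cells Acta2 stood at 47.4, 339, 221 and 305 CPM and Tagln at 10.4, 142, 64.6 and 406 CPM in the 4 libraries, highest for Tagln in the library where Tagln was highest. Whether free RNA or doublets gave these UMIs was not tested. The unnamed cluster 16 of shallow cells also had high levels, with Acta2 at 4756, 10619, 1951 and 5741 CPM, and its 48 to 113 cells per library changed no call when left out.

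**Figure D3:**
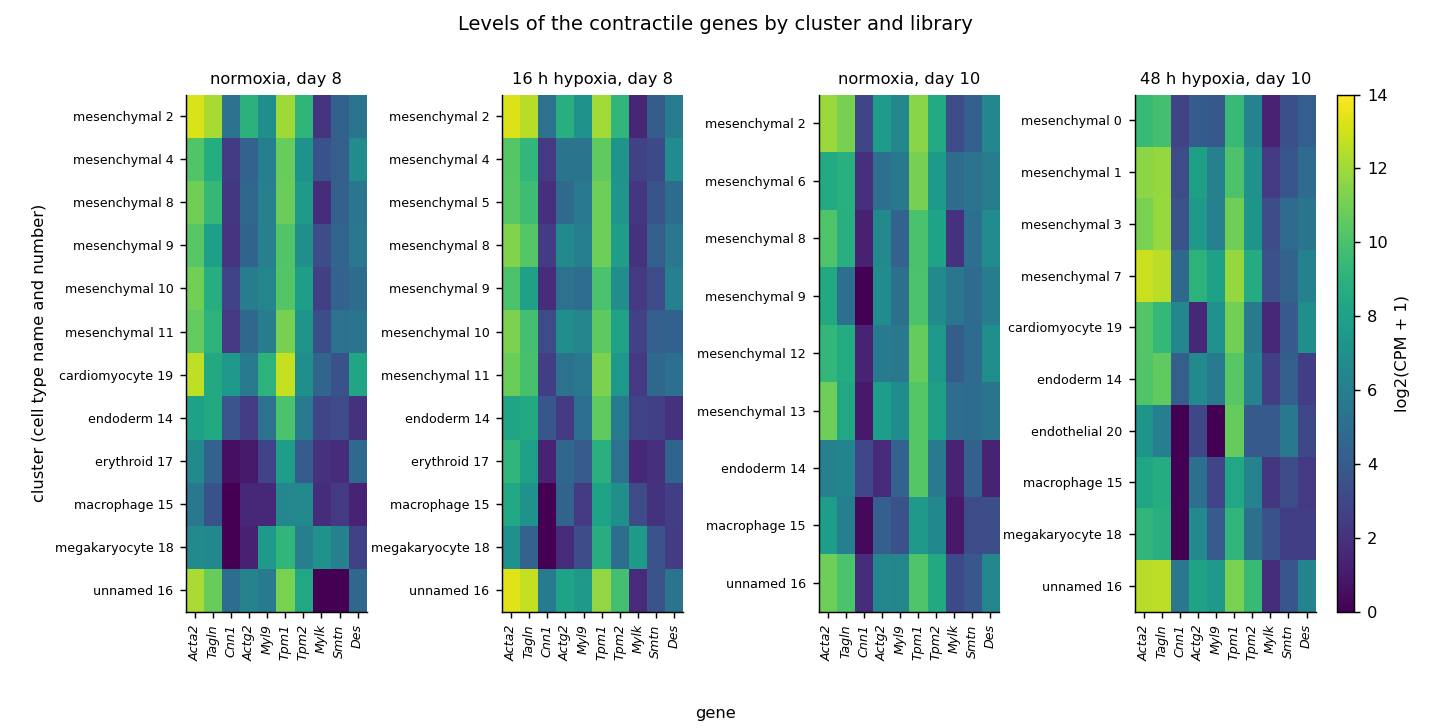
Level of each gene in each cluster of at least 20 cells, by library, as log2(CPM + 1) on a colour scale from 0 to 14; mesenchymal-like clusters are at the top of each panel and other types below. Among mesenchymal-like clusters Acta2 and Tagln are highest in cluster 2 at day 8 and in cluster 7 after 48 h of hypoxia, the unnamed cluster 16 is higher still for both after 16 h of hypoxia (Acta2 at 10619), and Mylk at day 8 peaks in the megakaryocyte-like cluster 18.

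Because depth per cell differed between libraries, each cell was thinned to 5000 UMIs, which left out 70, 166, 162 and 619 shallower cells in the 4 libraries. Acta2 was then seen in 86.2%, 85.6%, 60.1% and 83.1% of cells, and Tagln in 52.1%, 63.3%, 42.8% and 85.1%. The unthinned shares were 93.3%, 91.4%, 75.8% and 87.0% for Acta2 and 69.2%, 74.6%, 59.2% and 85.2% for Tagln. In macrophage-like cells the thinned shares were 19.2%, 42.1%, 8.43% and 23.3% for Acta2 and 3.85%, 7.89%, 4.82% and 15.5% for Tagln; the median macrophage-like cell had 37777, 24021, 20400 and 12302 UMIs before thinning. The shares in all cells lay above these in every library.

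The difference between libraries was larger in strongly positive cells. Cells with at least 10 Tagln UMIs among 5000 made up 12.98%, 22.3%, 5.88% and 49.4% of cells, and those with at least 10 Acta2 UMIs 32.3%, 35.5%, 14.7% and 42.8%. The median cell had 1, 2, 0 and 9 Tagln UMIs, and 6, 5, 1 and 6 Acta2 UMIs. The 10% of cells with most Tagln held 65.9%, 55.1%, 66.5% and 36.6% of all thinned Tagln UMIs, so Tagln was spread over more cells after 48 h of hypoxia than in any other library. For Acta2 the top 10% held 47.9%, 47.5%, 54.7% and 43.7%, and for Tpm1 30.7%, 29.1%, 28.9% and 34.6%. Tpm1 was seen in 89.0% to 93.9% of cells in every library.

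The scarcer genes were seen in few cells at this depth. Actg2 was seen in 12.3%, 14.1%, 12.8% and 26.4% of cells and Cnn1 in 3.65%, 4.15%, 1.11% and 4.88%. Mylk was seen in 3.16%, 1.95%, 7.27% and 2.48% of cells and, in macrophage-like cells, in 1.92%, 5.26%, 0.602% and 2.91%, which rest on 1, 2, 1 and 3 cells. The exact 95% intervals of those macrophage-like shares were 0.0487% to 10.3% in day 8 normoxia and 0.644% to 17.7% in day 8 hypoxia. After 48 h of hypoxia the interval was 0.605% to 8.28%. Each of these includes the Mylk share of all cells, so a difference was not detectable there at this depth. In day 10 normoxia the interval, 0.0153% to 3.31%, lay below the share of all cells. Smtn was seen in 9.30%, 5.19%, 12.6% and 7.76% of cells and, in macrophage-like cells, in 1.92%, 5.26%, 4.22% and 1.94%, which rest on few cells as well. Des was seen in 18.2%, 17.0%, 22.5% and 13.4% of cells.

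**Figure D4:**
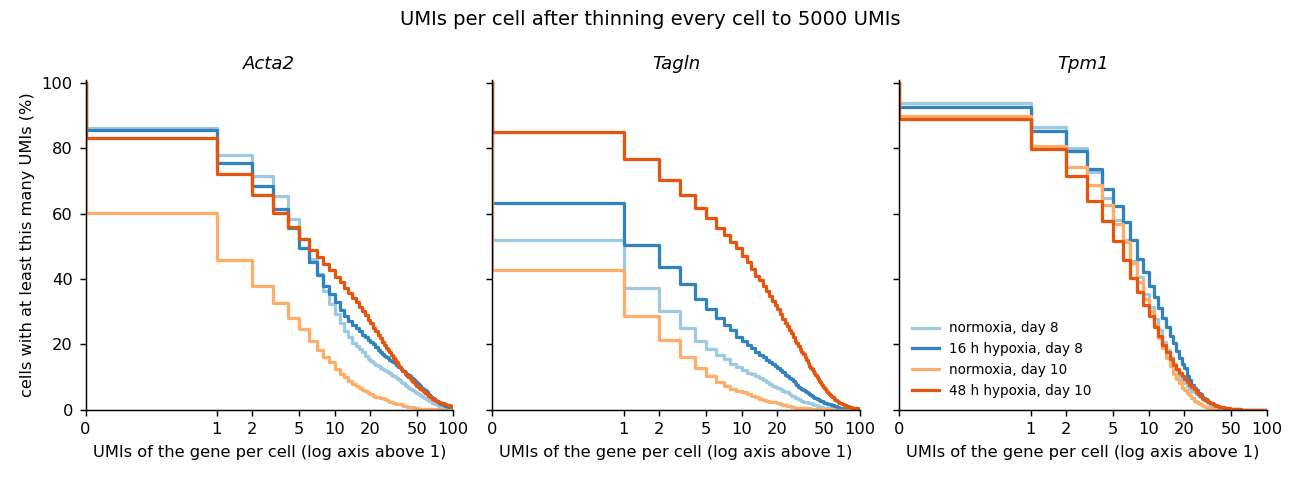
Share of cells (%) with at least a given number of UMIs of Acta2, Tagln or Tpm1, after thinning each cell to 5000 UMIs; each line is 1 library and the x axis is logarithmic above 1. At 10 UMIs of Tagln the lines stand at 12.98%, 22.3%, 5.88% and 49.4%, whereas the lines for Tpm1 lie close together.

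The pairing of Acta2 with the other genes from cell to cell was described within mesenchymal-like cells. As a description over 2255 to 3773 thinned cells per library, which share that library's depth and free RNA, the Spearman correlation of Acta2 with Tagln was 0.60, 0.69, 0.25 and 0.74 in the 4 libraries. That of Acta2 with Tpm1 was 0.48, 0.61, 0.07 and 0.62, and that of Acta2 with Actg2 was 0.39, 0.46, 0.35 and 0.54. With Myl9 it was 0.17, 0.34, 0.21 and 0.44, and with Tpm2 0.35, 0.38, 0.20 and 0.30. Day 10 normoxia had the lowest value for Tagln, Tpm1, Actg2 and Tpm2. With Cnn1 it was 0.16, 0.24, 0.10 and 0.18. The correlations of Acta2 with Mylk, Smtn and Des ran from -0.09 to 0.10. Sparse counts limit what weak values can show, but Des was not always sparser than Actg2. In these thinned cells Des was seen in 20.2%, 18.7%, 24.6% and 13.5%, and Actg2 in 13.8%, 15.4%, 14.1% and 27.4%. The part of sparse counts in the weak values was not tested. Over 33 profiles of a cluster in a library, each from at least 50 cells, the Pearson correlation of log2 levels was 0.89 for Acta2 with Tagln, 0.88 with Actg2, 0.70 with Cnn1, 0.66 with Des, 0.42 with Smtn and 0.02 with Mylk.

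The genes with the most similar pattern over those 33 profiles were sought among 6363 genes. For Acta2 they were Tagln (0.89), the small heat shock protein Hspb1 (0.89) and Tgfb1i1 (0.89), which encodes the focal adhesion protein Hic-5. For Tagln they were the small heat shock protein Cryab (0.95), Hspb1 (0.93) and Tinagl1 (0.91). For Actg2 they were the secreted protein gene Cthrc1 (0.94), Mxra7 (0.89) and Acta2 (0.88), and for Cnn1 the light chain Myl12a (0.86), Csrp1 (0.84) and the actin-severing factor Dstn (0.83). Myl9 was most like Cald1, which encodes caldesmon (0.90), H19 (0.90) and the procollagen protease Bmp1 (0.90); Tpm1 was most like Tsc22d1 (0.95), Cald1 (0.95) and Pdlim7 (0.94); and Tpm2 was most like S100a11 (0.89), Capzb (0.89) and Timp1 (0.88). The remaining 3 genes had other partners: Mylk had Col6a2 (0.71), Fbn2 (0.69) and Hlf (0.67), Smtn had Adgrl1 (0.83), B4gat1 (0.83) and Morf4l1 (0.82), and Des had Col1a1 (0.89), Hand2 (0.88) and Mfap4 (0.87). These correlations are descriptions over profiles that share libraries.

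Lists of related genes were read in the same way after 48 h of hypoxia, beside the 10600 genes that averaged 5 CPM or more, of which 4.4% were called higher and 27.0% lower, and whose median log2 ratio was -0.47. With TMM scaling, an alternative chosen after seeing the data, 12.2% of these were higher and 13.9% lower, and the median was 0.01. Of 12 other smooth muscle identity genes that averaged 5 CPM or more, 0 were called higher and 4 lower; their median log2 ratio was -0.27. With TMM scaling 3 were higher and 1 lower. The 4 were Ppp1r14a, the inhibitor of myosin phosphatase CPI-17 (33.2, 39.3, 86.6 and 22.5 CPM), the phosphatase subunit Ppp1r12b (44.6, 42.3, 60.8 and 21.3 CPM), the integrin Itga8 (61.8, 51.5, 63.1 and 24.2 CPM) and the actin-bundling gene Synpo2 (11.6, 5.53, 6.60 and 2.66 CPM). Their log2 ratios after 48 h of hypoxia were -1.90, -1.47, -1.35 and -1.06. Myh11, the smooth muscle myosin heavy chain and the most specific marker of the mature cell, stood at only 1.86, 1.59, 2.81 and 5.52 CPM, with a log2 ratio of 0.77 after 48 h of hypoxia. Chosen after their values were seen, the 3 largest ratios of the 12 genes were above 0 but under 2-fold. They were those of leiomodin 1, Lmod1 (29.8, 43.2, 36.7 and 72.3 CPM, log2 ratio 0.96), Csrp1 (0.80) and Dstn (0.71). Hspb7 (0.23) and Ldb3 (0.03) also lay above 0, while Npnt (-0.41), Cald1 (-0.32) and Pdlim3 (-0.23) lay below it.

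Among 19 genes of SRF, MRTF and myocardin control, 4 were called higher and 4 lower after 48 h of hypoxia; the list's median log2 ratio was -0.03. With TMM scaling 5 were higher and 2 lower. Myocd, the myocardin coactivator of SRF, stood at 7.88, 8.48, 2.43 and 15.3 CPM, and its log2 ratios were 0.09 at day 8, 2.25 at day 10 and -1.37 between the normoxic libraries. Day 10 normoxia was thus the lowest library for Myocd, as it was for Acta2, Tagln, Cnn1, Actg2, Myl9 and Tpm1. Srf itself stood at 19.6, 15.6, 14.5 and 19.5 CPM, Mrtfa at 44.5, 55.6, 57.3 and 63.7 CPM, and Mrtfb at 65.2, 73.1, 66.0 and 35.1 CPM, with log2 ratios after 48 h of hypoxia of 0.40, 0.15 and -0.89. The Krüppel-like factor Klf5, at 8.88, 14.3, 9.47 and 40.1 CPM, was higher by a log2 ratio of 1.97. The mesodermal factors Gata6 (202, 186, 275 and 87.2 CPM) and Foxf1 (36.4, 25.8, 29.6 and 7.47 CPM) were lower, by log2 ratios of -1.64 and -1.85.

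Among 17 genes of TGF-beta, Notch and PDGF inputs, 3 were called higher and 5 lower after 48 h of hypoxia; the list's median log2 ratio was -0.65, and the counts were the same with TMM scaling. The 3 were Ccn2, a matricellular protein induced by TGF-beta and by YAP (57.7, 75.6, 40.6 and 182 CPM), the ligand Pdgfb (2.93, 5.67, 5.51 and 24.7 CPM) and the peptide Edn1, endothelin 1 (7.82, 10.4, 8.69 and 36.2 CPM), with log2 ratios of 2.14, 1.98 and 1.94. The largest difference on the low side was that of the ligand Tgfb3, at 13.6, 10.5, 32.0 and 6.74 CPM and a log2 ratio of -2.09.

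Among 20 genes of the myosin light chain switch and the RhoA pathway, 0 were called higher and 3 lower after 48 h of hypoxia; the list's median log2 ratio was -0.41, near that of all genes. With TMM scaling 1 was higher and 3 lower. Among those lower were the calcium release channel Itpr1 (85.9, 80.2, 222 and 57.1 CPM) and the cyclic GMP-dependent kinase Prkg1 (852, 897, 662 and 203 CPM), with log2 ratios of -1.94 and -1.70. Calm3, at 134, 109.8, 88.8 and 47.1 CPM, had a log2 ratio of -0.90. The kinase Mylk, described above, lay on the same side as these genes.

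Among 11 actin, calponin, transgelin and tropomyosin relatives, 2 were called higher and 2 lower after 48 h of hypoxia; the list's median log2 ratio was 0.57. With TMM scaling 6 were higher and 1 lower. The cardiac actin Actc1 stood at 44.9, 32.0, 7.20 and 29.97 CPM and cytoplasmic gamma actin, Actg1, at 3062, 4367, 2544 and 5321 CPM, with log2 ratios of 1.92 and 1.06. Cytoplasmic beta actin, Actb, stood at 4161, 3943, 3179.7 and 2545 CPM, a log2 ratio of -0.32, so that the cytoplasmic actins differed in direction under this scaling; against the median of the 6578 background genes, -0.33, Actb lay at it. The tropomyosin Tpm3 (334, 216, 244 and 70.9 CPM) and the filament protein nestin, Nes (26.3, 29.3, 27.1 and 9.87 CPM), were lower, by log2 ratios of -1.77 and -1.37. In coding transcripts of GENCODE, the longest identical run between the last 500 bases of a contractile gene and those of a relative was 31 bases, for Actg2 and Actc1.

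Among 18 genes of focal adhesion and cortical actin, 1 was called higher, the LIM protein Pdlim1 (90.3, 97.6, 49.8 and 132 CPM, log2 ratio 1.39), and 1 lower, the cytokinesis protein anillin, Anln (45.2, 34.1, 38.4 and 16.5 CPM, log2 ratio -1.17), with a median of -0.36. With TMM scaling 3 were higher and 0 lower. Lima1 and the talin gene Tln1 had log2 ratios of -0.87 and -0.81. After 16 h of hypoxia 0 genes of these 6 lists that averaged 5 CPM or more were called in either direction (1 higher with TMM scaling), where 1.58% of all such genes were higher and 1.77% lower, and the list medians lay between -0.06 and 0.15. Below that level, and chosen after their values were seen, the skeletal actin Acta1 (2.75, 7.80, 0.11 and 7.85 CPM) had log2 ratios of 1.23 after 16 h and 2.99 after 48 h, and the Notch target Hey1 (1.21, 3.54, 4.07 and 10.5 CPM) had 1.04 and 1.18.

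**Figure D5:**
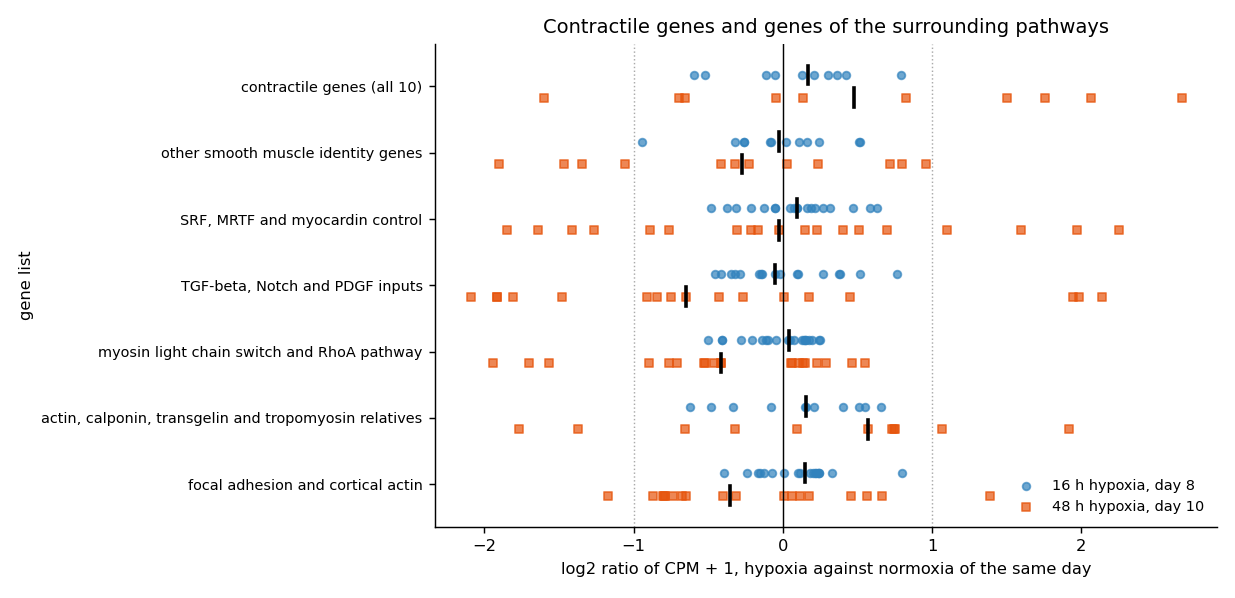
Log2 ratio of hypoxia to normoxia for the 10 contractile genes and for those genes of 6 lists that average 5 CPM or more, after 16 h (circles) and 48 h (squares); each point is a gene, black ticks are medians and dotted lines mark 2-fold. After 16 h every point lies within 2-fold, and after 48 h the contractile genes run from -1.60 to 2.67.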

How the data were processed

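The deposited files hold, per library, counts of unique molecular identifiers (UMIs) per gene and barcode, made by the authors with Cell Ranger 7.1.0 on mm10, per the submitters' processing notes. The sources used here do not say whether intronic reads or strand were used. Cells with at least 500 genes and at most 15% mitochondrial UMIs were kept. No doublet caller was applied, and leaving out the 5% of cells with most UMIs was 1 of 10 alternatives tried; another 5 were added after seeing the data. UMIs were summed per library, scaled to CPM, and compared as log2 ratios of CPM + 1. With 1 library per group, no test was made. Poisson, conditional binomial and Clopper-Pearson intervals (scipy 1.17.1) cover counting error only. The ratio was checked on simulated data with Poisson noise only, in which changed genes went up or down at random. That check cannot show the effect of scaling or variation between cultures. Background genes averaged 20 CPM or more across the 4 libraries.

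Cells were clustered with scanpy 1.11.5 (2000 variable genes without the 10 genes, the pathway lists, 3 further lists, and mitochondrial and ribosomal protein genes; 30 principal components, 15 neighbours, Leiden resolution 1). A cluster was named where at least 3 markers were 2-fold higher and in at least 10% of its cells, with a mean log2 fold of at least 1. Fibroblast, pericyte and mesothelial names were merged as mesenchymal-like after seeing the data, and clusters without a name were then compared with the named clusters of other types. TMM factors came from edgeR 4.0.16. The 10 genes and all lists were chosen with earlier results of these data known. All 10 genes are named; of each list, up to 4 genes with the largest absolute day 10 ratio and an average of at least 5 CPM, plus Srf, Myocd, Mrtfa, Mrtfb, Myh11, Actb and Actg1; and 3 similar genes per contractile gene. One gene that this rule names is not reported here.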

Additional observations from a re-analysis of the deposited data

Results flagged for a closer look

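For 2 genes, in all kept cells, the difference between hypoxia and normoxia had opposite signs at the 2 days, with both counting intervals away from 0. In mesenchymal-like cells the interval of Myl9 at day 8 included 0 (-0.07 to 0.04). The log2 ratio of Myl9 was -0.06 at day 8 and 0.82 at day 10, a difference of 0.88. That of Tpm2 was 0.30 at day 8 and -0.05 at day 10, a difference of -0.35. Neither difference was tested, since each condition was 1 library. The small ratio of each pair changed sign with another scaling: with TMM that of Myl9 at day 8 was 0.17 and that of Tpm2 at day 10 was 0.45.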

How the results depend on the processing

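No called log2 ratio of the 10 genes changed sign under the 15 alternatives. The count of genes called higher after 16 h of hypoxia was 1 in place of 0 with TMM scaling, where Tagln reached 1.02. The count called lower after 48 h of hypoxia was 0 in place of 1, and the count called higher at day 10 in normoxia was 0 in place of 1, both with a pseudocount of 10 CPM and when only genes averaging 20 CPM or more were counted, which leaves out Mylk by construction. The count called lower at day 10 in normoxia was 1 in place of 3 in mesenchymal-like cells without cluster 6, the cluster named from mesothelial markers, and 3 without clusters 5, 6, 8 and 11, which had such markers among their top 10 genes, both chosen after seeing the data; the cause was not tested. Between the normoxic libraries Tagln was also under 2-fold with each other scaling of all kept cells, and Cnn1 with a pseudocount of 10 CPM. Counting only genes averaging 20 CPM or more leaves out Cnn1 as well. The count called higher after 48 h of hypoxia was 3 to 5 under every alternative. Over these alternatives the log2 ratio after 48 h of hypoxia ran from 2.36 to 3.18 for Tagln, 1.12 to 2.26 for Acta2, 0.93 to 2.51 for Cnn1, 0.87 to 2.00 for Actg2 and -1.71 to -0.95 for Mylk. At Leiden resolution 0.5, 26 of 40 highest cluster levels left their counting interval, and with cells thinned to 10000 UMIs all 40 shares did. The share of cells with a UMI rises with depth, so the second change follows from the setting. No paired analysis was possible because each group has 1 library. Counts of Cnn1 and Mylk, 164 to 1380 UMIs per library, limit what depth can show for them, and nothing here measures variation between cultures.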
